A study of Rattus norvegicus with 2 samples.

Results

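The B cell identity genes Cd22, Cd79a, Cd79b, Ms4a1, Blk, Blnk, Pax5, Cr2 and Fcer2 were looked up on a rat whole genome array that had been hybridised with blood RNA of rats given lavender oil (LO) and of control rats. A feature was taken as a member when the RefSeq accession or name that the scanner output gives it belongs to one of these symbols or to a current alias. Of the 9 genes, 4 had a probe by this rule, namely Cd79b, Blk, Blnk and Fcer2, with 5 probes among the 41009 probes used, against 8898 genes of the series that could be named in the same way. Cd22, Cd79a, Ms4a1, Pax5 and Cr2 had 0 matched probes, and their levels were not analysed here. Ms4a1 is also an older alias of Ms4a2, and Blk one of Bik, and the 2 probes of Ms4a2 and 1 probe of Bik were not counted.

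Blood was taken on day 14 from male rats, 7 weeks old when housed, that had received LO at 5 mg/kg in 10% ethanol, or the 10% ethanol diluent alone (0 mg/kg), into the stomach once a day for 13 days. The LO group and the control group had 6 rats each, and the RNA of a group was combined into 1 pool. The strain is given as F334 in the methods and in the growth description of the samples, and as Wistar in another field of the labels. The methods name the heart as the source of the blood, and the labels name the portal vein as well. Both pools were hybridised together on 2 arrays, with LO in the red dye Cy5 and control in the green dye Cy3 on array 1, and with the dyes exchanged on array 2. The 2 arrays therefore repeat 1 comparison of the same 2 pools, hold no spread between rats, and allow no test between the conditions.

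B lymphocytes recognise antigen through a membrane immunoglobulin that signals by way of the paired chains Cd79a and Cd79b. Src family kinases such as Blk and Lyn phosphorylate these chains, the kinase Syk docks on them, and the adaptor Blnk then gathers Btk and Plcg2 to pass the signal on. Cr2 and Fcer2 are the complement receptor CD21 and the low-affinity IgE receptor CD23 of mature B cells, Cd22 is an inhibitory lectin, Ms4a1 is the surface antigen CD20, and Pax5 is the transcription factor that keeps the B cell fate. In whole blood these transcripts were taken to come mainly, though not only, from the B cells among the white cells. A smaller number of B cells and less RNA per B cell cannot be told apart.

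The Feature Extraction software rated 44.8% to 50.3% of the non-control features as well above background, depending on the channel, and 37.5% of the probes in all 4 channels. No feature was saturated, with 0 of 43379. The level of a probe is not compared with that of another probe, since probes differ in how strongly they bind. The median LO/control log2 ratio was 0.0 over all probes and -0.0026 over the 15371 probes well above background in 4 channels. The software had set the log ratio to 0 on at least 1 array for 7484 of the 41009 probes, none of them a B cell member, and the median over all probes was -0.018 in the value table, which holds these ratios. The 7484 probes count in the shares of all probes given here but cannot be higher in a pool or a dye on both arrays. Spots of negative control sequence, 153 on each array, had a raw median signal of 72.0 and 73.0 in Cy5 and of 119 and 132 in Cy3 on arrays 1 and 2, so that the raw floor was the higher in Cy3.

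Cd79b, the signalling chain of the antigen receptor, stood well above background in every channel and was nearly level between the pools. Its processed signal on array 1 was 1506 in the LO pool and 1409 in the control pool. On array 2 it was 1420 in the LO pool and 1318 in the control pool. The LO pool was slightly higher on both arrays, and the 4 values lay close together whichever dye was used. Array 1 gave an LO/control ratio of 1.07 and array 2 one of 1.08. The p that the authors' Feature Extraction software attached to these ratios was 0.639 and 0.601. The mean log2 ratio was 0.10 with an SD of 0.0078 between the 2 technical arrays. The error carried over from the software's error model was 0.15, which gives the mean ratio a 95% error range of 0.881 to 1.31. This range and those of the other probes cover the error of the spots and no difference between rats.

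Fcer2 (CD23), which binds IgE on mature B cells, was measured by 2 probes, designed on 2 RefSeq transcript entries of the gene. The probe of NM_001033924 gave a processed signal of 1470 in the LO pool and 1441 in the control pool on array 1. On array 2 it gave 1446 in the LO pool and 1286 in the control pool. All 4 channels were well above background, and the LO pool was the higher on both arrays. The ratios were 1.02 and 1.12, the mean log2 ratio was 0.10 with an SD of 0.10 between the arrays, and the error range of the mean ratio was 0.880 to 1.30. The software's p was 0.888 and 0.409.

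The probe of NM_133550 was much closer to background. It gave 84.3 in the LO pool and 69.6 in the control pool on array 1. On array 2 it gave 61.8 in the LO pool, not well above background, and 96.9 in the control pool. On each array the pool in Cy5 was the higher, so the ratio was 1.21 on array 1 and 0.638 on array 2. The software's p was 0.475 and 0.0850. The mean log2 ratio was -0.19 with an SD of 0.65 and an error of 0.27, and the error range of the mean ratio, 0.609 to 1.27, included the mean of the NM_001033924 probe. The 2 probes of Fcer2 thus gave means of opposite sign, and the error range of each included a ratio of 1.

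**Figure D1:**
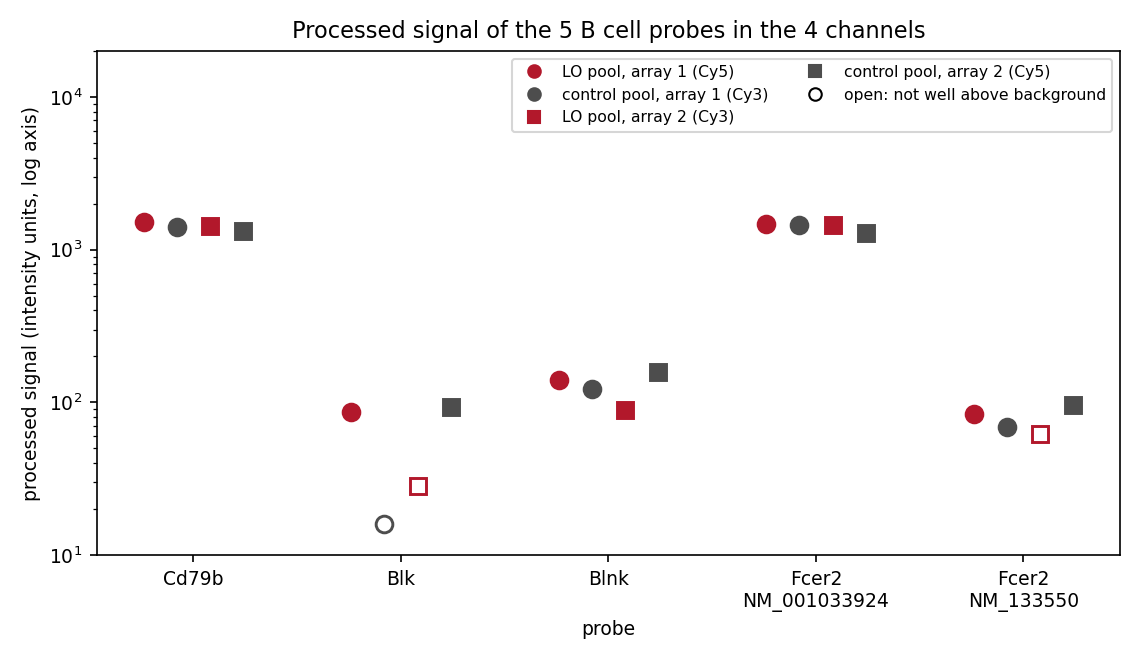
Processed signal (intensity units, log axis) of the 5 probes of Cd79b, Blk, Blnk and Fcer2 in the LO pool (red) and the control pool (grey), on array 1 (circles) and array 2 (squares); open symbols were not well above background. The 4 values of Cd79b and of the Fcer2 probe NM_001033924 lie together at 1286 to 1506, while in Blk the Cy5 channels stand at 86.7 and 93.4 and the Cy3 channels at 16.0 and 28.6.

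Blk, a Src family kinase largely restricted to the B lineage, followed the dye and not the pool. On array 1 its processed signal was 86.7 in the LO pool, read in Cy5, and 16.0 in the control pool, read in Cy3. On array 2 it was 28.6 in the LO pool, now in Cy3, and 93.4 in the control pool, now in Cy5. Each pool was well above background when it carried Cy5 and not when it carried Cy3. Its LO/control ratio was accordingly 5.42 with LO in Cy5 and 0.306 with LO in Cy3. The software's p was 0.00086 and 0.00157, so that Blk passed the threshold of the methods, 0.01, on both arrays in opposite directions. Its mean log2 ratio of 0.37 had an SD of 2.93 between the arrays, and the error range of the mean ratio was 0.695 to 2.39. Being well above background in Cy5 on both arrays and in Cy3 on neither was seen in 3.48% of all probes.

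The raw spot values of Blk stood near those of the negative control spots. Its raw median signal in Cy3 was 125 on array 1, above 80.4% of the negative control spots, and 144 on array 2, above 96.1% of them. In Cy5 it was 100 on array 1, above every negative control spot, and 95 on array 2, above 99.3% of them. The local background around the spot was 64 to 67 in the 4 channels. Over this local background the raw signal of Blk, like the median of the negative control spots, was the higher in Cy3 on both arrays. The software's own background-subtracted signal was smaller in each channel than the raw median less the local background. It was 5.32 and 11.1 units in Cy3, against 21.9 and 23.4 units in Cy5. Both ratios of Blk rest on these few units above background.

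**Figure D2:**
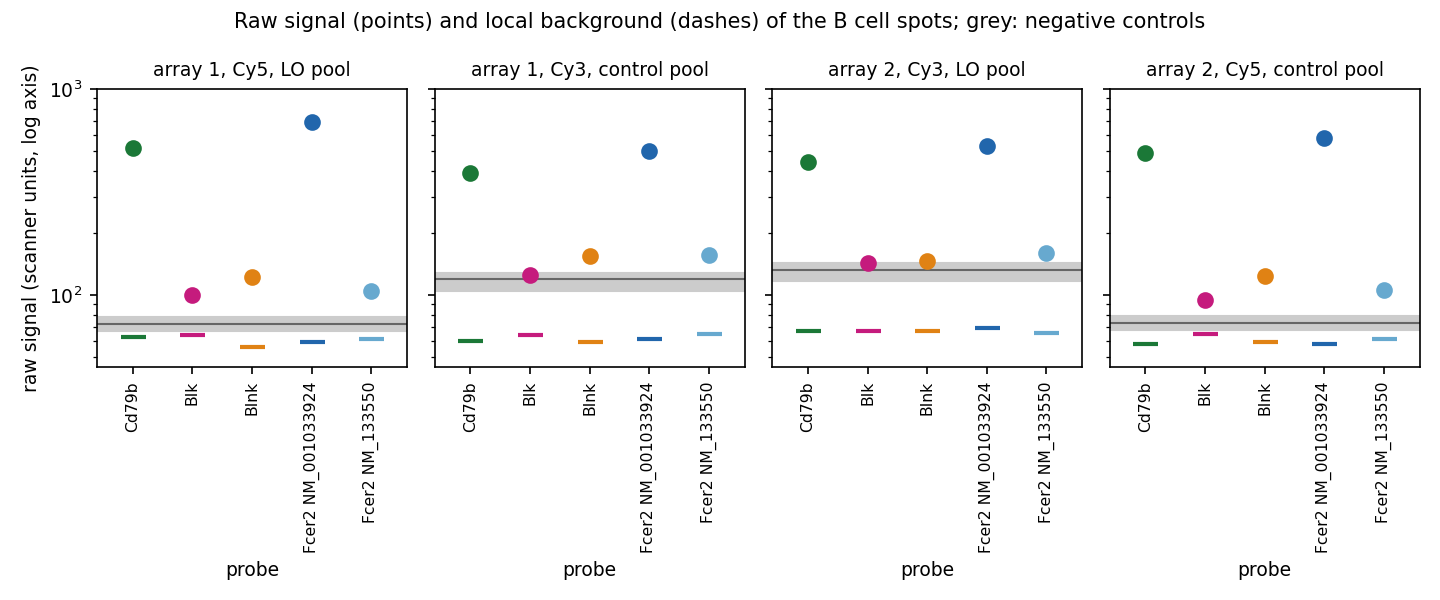
Raw median signal of each spot (points) and its local background (dashes), in scanner units on a log axis, for the 5 probes in each of the 4 channels; the grey band spans the 5th to 95th percentile of the 153 negative control spots and the grey line is their median. Blk lies inside the band in Cy3 on array 1 (125 against an upper edge of 128) and above it in Cy5 (100 against 78), whereas Cd79b and the Fcer2 probe NM_001033924 are far above it in every channel.

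Blnk, the adaptor that couples Syk to Btk and Plcg2, was well above background in all 4 channels but at a low signal. On array 1 it was 140 in the LO pool and 122 in the control pool. On array 2 it was 88.8 in the LO pool and 159 in the control pool. The pool in Cy5 was the higher on each array, with a wide gap on array 2 only. The ratio was 1.15 on array 1, where the software's p was 0.504, and 0.560 on array 2, where it was 0.00720. An LO pool lower at this threshold on array 2 was found in 3.62% of all probes. The mean log2 ratio of Blnk was -0.32, a ratio of 0.801, with an SD of 0.73 between the arrays. The error of the mean was 0.21, and its error range reached from 0.599 to 1.07.

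Over the 5 probes, the mean of both arrays passed 1.5-fold in 0 probes towards the LO pool and in 0 towards the control pool, while 4.2% of all probes passed it with LO higher and 3.94% with LO lower. Of the 24199 probes well above background in at least 1 channel, as all 5 were, 604 passed it with LO higher and 479 with LO lower. Among probes well above background in 4 channels, as 3 of the 5 were, 0.124% passed it in either direction. The p threshold of the methods, applied on both arrays with the same pool higher, took 0 of the 5 probes and 0.0219% of all probes. This p rule took 9 of 41009 probes, all of them well above background in 1 to 3 channels. It took none of the probes well above background in 4 channels, and a fold limit added to it could bring in no further probe. The methods also name fold limits, and these were applied here without a p threshold. For this the ratios of the value table were used for every non-control feature, with flagged features kept and spots not averaged. Cy5 over Cy3 had to reach 1.5 on either array and to be no more than 0.75 on the other. This fold rule, chosen with the values known, took 0 of the 5 probes and 834 of 43379 features, or 1.92%. Its count of features equals the number of differentially expressed genes that the paper reports, which the p rule does not reach. The p threshold with the same dye higher took Blk alone, towards Cy5, as it did 1.58% of all probes. Among probes well above background in 1 to 3 channels, as Blk was, it took 515 of 8828 towards Cy5, a larger share. The LO pool was higher on both arrays in 2 of the 5 probes, Cd79b and Fcer2 NM_001033924, against 9.39% of all probes and 11.7% of those well above background in 4 channels. Cy5 was higher on both arrays in the other 3 probes, Blk, Blnk and Fcer2 NM_133550, against 30.0% of all probes. Of the 24199 probes well above background in at least 1 channel, it was so in 9526. The median log2 ratio of the 5 probes was 0.10, beside 0.0 for all probes, and it was 0.029 with the probes of a gene averaged first.

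**Figure D3:**
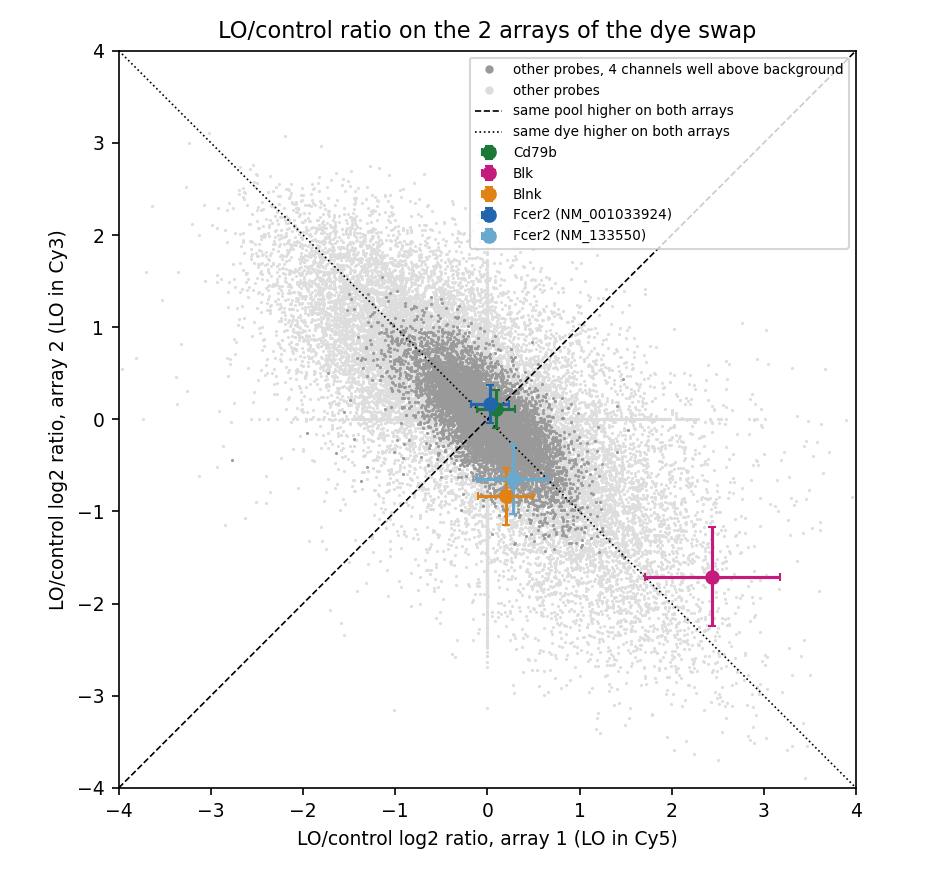
LO/control log2 ratio of each probe on array 1 (x axis, LO in Cy5) and array 2 (y axis, LO in Cy3); coloured points are the 5 B cell probes with the error of the software's error model, dark grey points are the other probes well above background in 4 channels and light grey points the rest. Cd79b (0.097 and 0.11) and Fcer2 NM_001033924 (0.029 and 0.17) lie near the centre, and Blk (2.44 and -1.71) lies far out along the dotted line on which the same dye is higher on both arrays.

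The dye swap allows each ratio to be split into a part that followed the pool, the mean of both arrays, and a part that followed the dye, the difference between the arrays divided by 2. The dye part of Blk was 2.07 on the log2 scale, a 4.21-fold excess of Cy5 over Cy3, and its size exceeded that of 98.7% of all probes. Blnk had a dye part of 0.52 and Fcer2 NM_133550 one of 0.46. The dye part was -0.0055 for Cd79b and -0.071 for Fcer2 NM_001033924. The median size of the dye part was 0.30 over all probes, 0.15 over those well above background in 4 channels and 0.78 over those well above background in 1 to 3 channels. The 3 probes with the larger dye parts were those whose signals stood nearest to background, and the part of that background in their ratios was not tested.

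In each of the 5 probes the dye part changed more between 3 ways of processing than the mean did. The normexp correction used the raw median and local background of each spot, not the software's background-subtracted signal, so more than the offset differed. With normexp background correction, an offset of 50 and loess, which draws the ratio of dim spots towards no change by construction, the dye part of Blk fell to 0.28 and its mean log2 ratio to 0.094. That of Blnk was 0.32 with a mean of -0.27, and that of Fcer2 NM_133550 was -0.0012 with a mean of -0.099. When background-subtracted signals were only centred on the median of each array, the dye part was 1.43 for Blk, and it rose to 0.41 for both Cd79b and Fcer2 NM_001033924, which the LOWESS step of the software had brought to near 0.

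**Figure D4:**
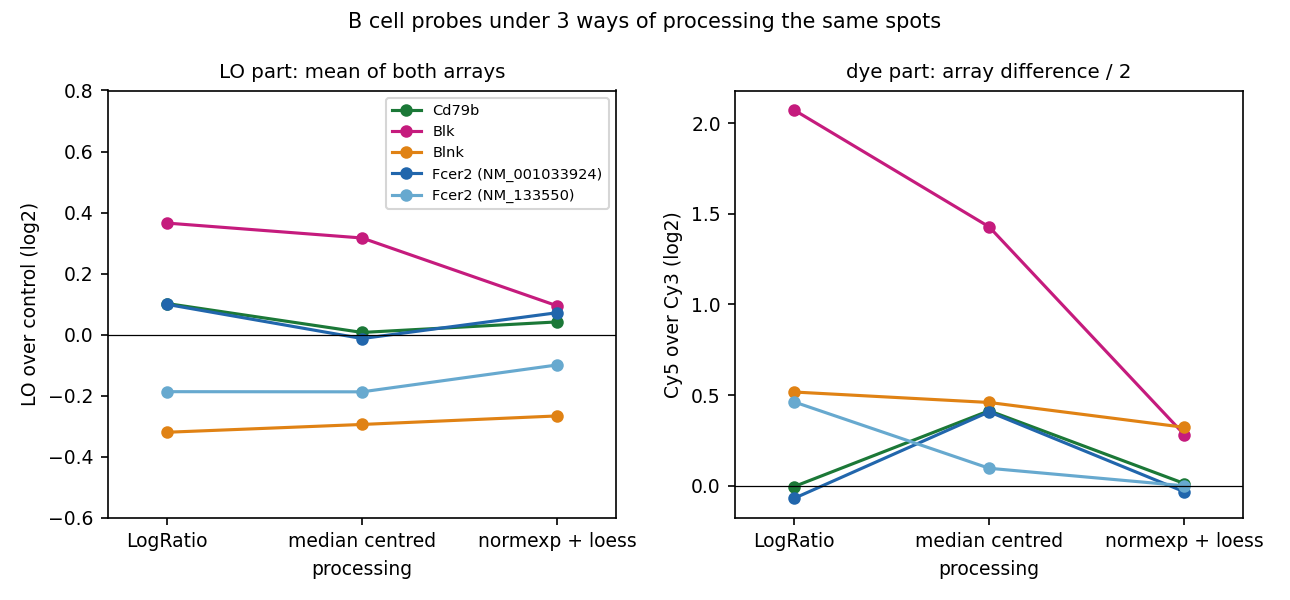
Mean LO/control log2 ratio (left) and dye part, Cy5 over Cy3 in log2 (right), of the 5 probes under 3 ways of processing the same spots: the software's log ratio, signals centred on the median after background subtraction, and normexp followed by loess; the lines only join the values of a probe. The dye part of Blk ran from 2.07 to 0.28, while all means stayed between -0.32 and 0.37.

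Other genes of the antigen receptor pathway and of B cell development were taken from a list of 65, of which 26 genes had a matched probe, with 33 probes. Of these probes, 28 were well above background in 4 channels, 3 in 1 to 3 channels and 2 in none. Their median log2 ratio was -0.052, beside 0.0 for all probes. The mean of both arrays passed 1.5-fold in 1 of the 33 probes with LO higher, against 4.2% of all probes, and in 0 with LO lower, against 3.94%. The p threshold on both arrays with the same pool higher was passed by 0 of the 33 probes. It was passed by 0.0219% of all probes and by none of those well above background in 4 channels. The LO pool was higher on both arrays in 2 probes, against 9.39% of all probes, and lower on both in 4, against 8.64%. Cy5 was higher on both arrays in 14, against 30.0%, and Cy3 in 13, against 33.8%. All but 2 of the 33 probes were well above background in at least 1 channel. Of the 24199 such probes on the array, Cy5 was higher on both arrays in 9526 and Cy3 in 9351.

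By role, the receptor-proximal kinases Syk, Lyn, Fyn and Btk had 6 probes, and the 5 of them well above background in 4 channels had mean log2 ratios of -0.15 to 0.076. The signal enzymes and adaptors Plcg2, Vav1, Prkcb and Bcl10, which act downstream of Blnk or beside it, ranged from -0.098 to 0.071 over 4 probes. Among inhibitory receptors and phosphatases (Cd72, Fcgr2b, Btla, Ptpn6 and Inpp5d), which restrain the receptor, 6 of 7 probes were well above background in 4 channels, with values of -0.090 to 0.29. The transcription regulators Ebf1, Tcf3, Spi1 and Ciita lay between -0.089 and 0.020 over 4 probes. The surface antigens Cd24, Cd37, Cd38 and Cd81 spanned -0.22 to 0.079 over 5 such probes, and Cd40 0.015 to 0.18 over 2. The -0.22 was of a Cd38 probe with LO/control ratios of 1.64 on array 1 and 0.452 on array 2. Another Cd38 probe, well above background in 3 channels, had a mean of 0.35. The chemokine receptors Cxcr5 and Ccr7, which guide B cells into lymphoid follicles and T cell zones, had means of -0.069 and -0.070. Of 9 genes for immunoglobulin chains and their recombination only Dntt had a matched probe, and its 4 channels were not well above background. Many genes of this list are also used by T cells or myeloid cells, and they do not measure B cells alone.

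Cd72, an inhibitory partner of the antigen receptor, was the probe past 1.5-fold and was singled out after its value had been seen. Its signal was 202 in the LO pool and 74.9 in the control pool on array 1, and 92.1 and 85.8 on array 2. The LO pool was the higher on both arrays, with a wide gap only on array 1, where the control signal was not well above background. The ratio was 2.70 on array 1 and 1.07 on array 2, and the mean of 1.70 had an SD of 0.94 between the arrays in log2 units. With normexp and loess the mean ratio of Cd72 was 1.11.

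Ciita, the regulator of MHC class II genes, was the only probe of the list past the methods' threshold on both arrays, and it was so towards Cy3, as were 1.06% of all probes. Its signal was 75.0 in the LO pool and 154 in the control pool on array 1, and 137 and 75.4 on array 2. Each pool was higher in Cy3 than the other pool in Cy5, the reverse of Blk. The ratio was 0.488 on array 1 and 1.81 on array 2, and the software's p was 0.00113 and 0.00736. The mean log2 ratio of Ciita was -0.089.

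**Figure D5:**
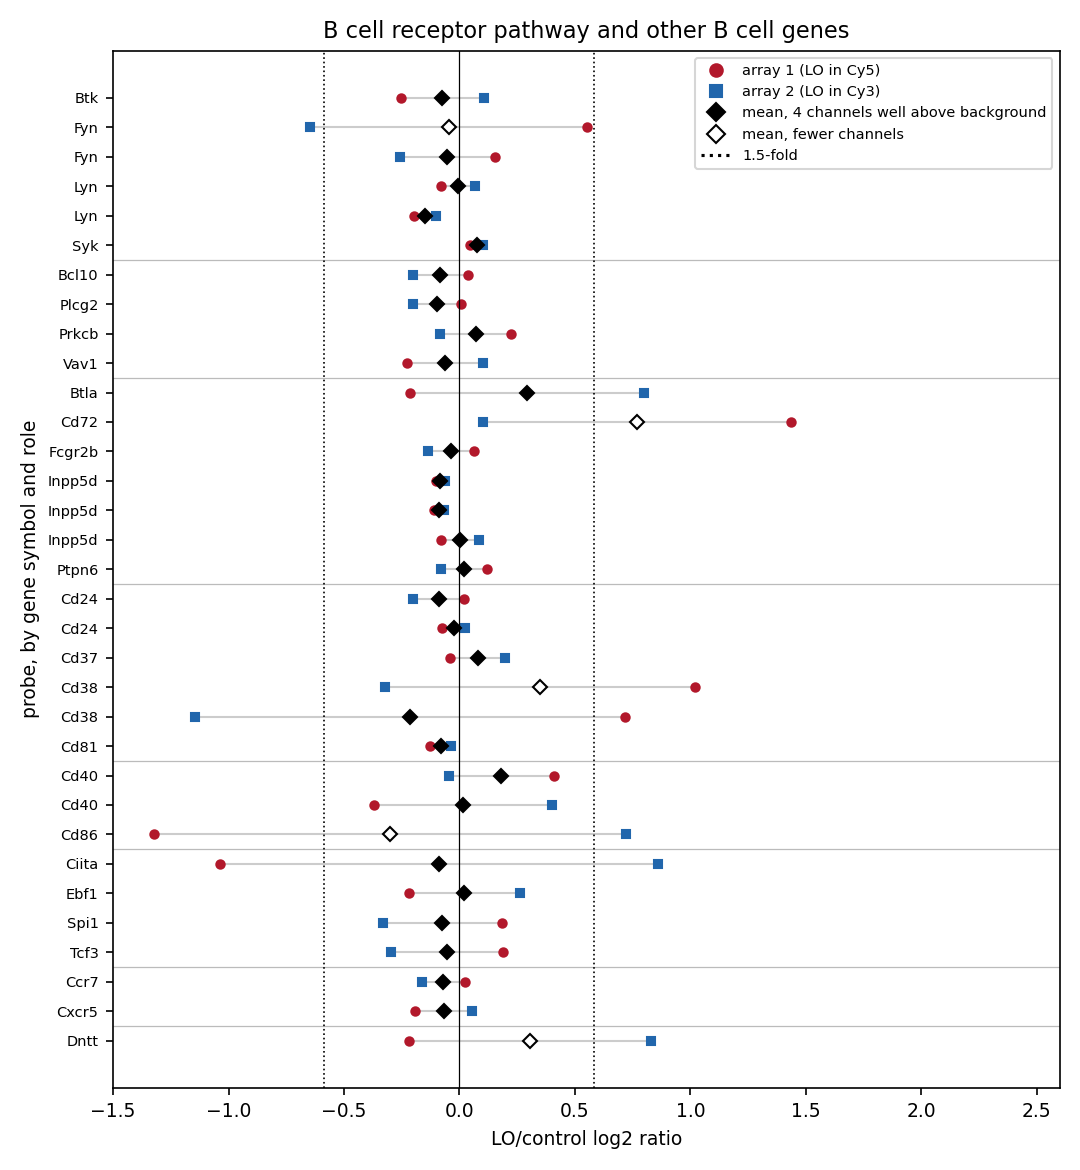
LO/control log2 ratio of the 33 probes of other B cell genes, grouped by role, on array 1 (red circles) and array 2 (blue squares), with the mean of both (diamonds, filled where 4 channels were well above background); dotted lines mark 1.5-fold. Means of filled diamonds lie between -0.22 and 0.29, and the mean of Cd72 alone lies past 1.5-fold.

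Markers of T cells, NK cells, neutrophils, monocytes, red cells and platelets were measured beside the B cell genes as a check of the labelled tissue. Of 37 such genes 29 had a probe, and 28 of their 31 probes were well above background in 4 channels. Their means in these 28 probes ranged from 0.861-fold to 1.11-fold, and the median log2 ratio of the 31 probes was 0.0. Signals were also summed over each list, and such a sum mostly follows its brightest probes. The sum of the 5 B cell probes was 3288 in the LO pool and 3058 in the control pool on array 1, and 3046 and 2952 on array 2. Most of it came from Cd79b and Fcer2 NM_001033924, at 1286 to 1506 a channel, while no other member probe exceeded 159. The sum of the 33 probes of the wider B cell list was 25399 and 24576 on array 1, and 25041 and 25779 on array 2, so that it was the higher in the LO pool on array 1 only. Ptpn6 alone gave 10337 and 9508 of it on array 1, and 9665 and 10207 on array 2. Of the other cell types, the sums of the 8 T cell probes and the 4 neutrophil probes were on both arrays larger for the LO pool, and that of the 6 monocyte probes was on both arrays smaller. The sums of the NK cell, red cell and platelet probes were higher in the LO pool on array 1 and lower on array 2. The T cell sum was 39659 in the LO pool and 38558 in the control pool on array 1, and 41593 and 38823 on array 2. The neutrophil sum was 31897 and 31336 on array 1, and 32555 and 29784 on array 2. In the monocyte probes the sum was 28426 in the LO pool and 32883 in the control pool on array 1, and 30298 and 34155 on array 2. No spread between rats stands behind any of these sums, and their part in the B cell values was not tested.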

How the data were processed

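The deposited scanner output was made by the authors with Agilent Feature Extraction 11.0.1.1, and since the array was designed on rn4, a build not held here, no coordinates are given. Of each channel the authors deposited the raw median intensity, the local background, the background-subtracted intensity and the processed intensity after LOWESS dye normalization. The authors also deposited the log10 ratio of Cy5 over Cy3, its error, and a p-value of the error model of each spot, which carries no adjustment for multiple features. In the deposited value table, the log10 values are ratios of the processed signals.

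Control spots and 338 features flagged as non-uniform or outlying in either array were dropped, spots of a probe were averaged (the p as a median), and log ratios were expressed as LO over control in log2. The rule of fold limits on each array kept the flagged features and did not average spots. Symbols came from a RefSeq table (GRCr8, names only), which named 10767 of 41009 probes. All 5 B cell probes were single unflagged spots. The members and gene lists were chosen with earlier results of these data known. All 9 members were to be named, and of the wider list the genes past 1.5-fold in probes well above background in 4 channels or past p 0.01 on both arrays.

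As each pool is 1 sample, no test between conditions was run. Alternatives were the value table, median centring, normexp with offset 50 and loess, flagged features kept, other limits and each array alone. Python 3.11.15, numpy 2.4.6, pandas 2.3.3, matplotlib 3.10.9, R 4.3.3 and limma 3.58.1 were used.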

Additional observations from a re-analysis of the deposited data

How the results depend on the processing

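The value table and the flagged features, when kept, left the 5 mean log2 ratios as given. Median centring moved Cd79b to 0.0073 and Fcer2 NM_001033924 to -0.013, and normexp with loess moved Cd79b to 0.042, in each case by less than the error of the spots. The median over the 5 probes ran from -0.65 to 0.20 when 1 array was left out. With median centring this median was -0.013, beside -0.056 for all probes, and with normexp and loess it was 0.042. At a limit of 1.2-fold, 1 probe (Blk) was past it with LO higher, 1 (Blnk) with LO lower, and 5 of the wider list in either direction. With 1 array left out, 0 to 1 of the 5 probes passed 1.5-fold with LO higher and 0 to 3 with LO lower, and 1 to 2 passed the p threshold. Towards the same dye, Blk was lost at p 0.001 (0 probes) and among probes well above background in 4 channels (0 probes). Cd72 was lost from the wider list at 2-fold, with normexp and loess, and with all 4 channels well above background (0 probes each). The cause of these shifts was not tested. No paired analysis was possible because the design holds 1 comparison of 2 pools. Blk in Cy3 on both arrays and Fcer2 NM_133550 in Cy3 on array 2 were not well above background.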
